A study of Homo sapiens with 6 samples.

Results

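ABCB1, ABCG2 and ABCC1 were followed as 3 drug efflux transporter genes in genome-wide maps of H3AcK9, histone 3 acetylated at lysine 9. The members were chosen by gene, as fixed windows of the hg19 genome with flanks of 10 kb. The windows are chr7 from 87123 to 87353 kb for ABCB1, chr4 from 89001 to 89163 kb for ABCG2, and chr16 from 16033 to 16247 kb for ABCC1. ABCB1 and ABCG2 are transcribed from the minus strand and ABCC1 from the plus strand. The windows held 125 of the 376666 untreated peaks, 260 of 912311 and 282 of 913199 peaks in the lists for vorinostat, and 302 of 896878 and 302 of 884242 peaks in the lists for romidepsin.

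The cells were SKOV3WT, an established human ovarian carcinoma cell line. Cells without drug were compared with cells given vorinostat or romidepsin for 24 h, each at 1 times its IC50, and both drugs inhibit histone deacetylases (HDACs). There were 3 ChIP samples, 1 per condition, and without replicates no test was made and no p-value is printed. According to the sample labels, each treated sample was divided by the sequencing company, and it gave 2 peak lists. The reporting form of the study also gives 1 sample per condition, with the treated samples split in 2 at the ChIP-seq step. Other parts of the study call the lists independent experiments or biological replicates, and these statements remain in conflict with the form and the labels. The labels are followed here, so the lists count as 1 sample and the value for a drug averages them. By the labels, their difference shows how far parts of 1 sample vary. The matched input samples have no peak list and enter no value. The lists carry no read numbers, and the depth behind a peak is unknown.

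ATP-binding cassette (ABC) transporters use ATP to move substrates out of the cell. ABCB1 encodes P-glycoprotein, the multidrug resistance pump that also exports romidepsin. ABCG2 encodes the breast cancer resistance protein, which carries drugs such as topotecan and mitoxantrone. ABCC1 encodes multidrug resistance-associated protein 1, an exporter of glutathione conjugates and of several anticancer drugs. Acetylation of H3K9 is placed by acetyltransferases, removed by HDACs and known as a mark of active promoters and enhancers. RNA, protein and drug transport were not measured in the data described here.

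ABCB1 and ABCG2 have starts of transcription far apart, at the upstream end of the gene and deep inside it. In GENCODE release 44 on hg38, the MANE Select transcript, the reference transcript of the gene, started 112.44 kb from the upstream end of ABCB1 and 72.99 kb from that of ABCG2. Shorter transcripts of ABCB1 started further inside, at 163.16 to 207.18 kb. Transcripts of ABCC1 started within 0.48 kb of its upstream end, apart from shorter ones further inside. The promoter sequences of RefSeq, in the build GRCh38.p14, covered 2 of the 3 genes and are shown because the peaks at these starts differed. The stretches below are the bases before a start that lie in no annotated exon, on the minus strand and 5′ to 3′. Those of ABCB1 are chr7:87713324-87713545 at the upstream end and chr7:87601079-87601134 before the MANE Select start. Those of ABCG2 are chr4:88231629-88231876 at the upstream end and chr4:88159025-88159159 before the inner starts. Capitals mark CCAAT boxes and GC boxes.
ABCB1 upstream end: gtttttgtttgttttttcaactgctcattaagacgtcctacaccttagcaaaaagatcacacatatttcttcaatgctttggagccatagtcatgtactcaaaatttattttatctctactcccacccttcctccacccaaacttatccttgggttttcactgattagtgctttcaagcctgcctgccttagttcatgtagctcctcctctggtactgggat
ABCB1 inner start: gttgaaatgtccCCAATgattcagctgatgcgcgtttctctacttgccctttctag
ABCG2 upstream end: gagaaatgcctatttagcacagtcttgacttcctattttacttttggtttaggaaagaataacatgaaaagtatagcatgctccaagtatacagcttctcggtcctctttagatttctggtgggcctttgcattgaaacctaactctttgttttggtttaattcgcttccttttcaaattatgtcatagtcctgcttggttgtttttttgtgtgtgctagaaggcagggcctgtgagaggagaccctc
ABCG2 inner start: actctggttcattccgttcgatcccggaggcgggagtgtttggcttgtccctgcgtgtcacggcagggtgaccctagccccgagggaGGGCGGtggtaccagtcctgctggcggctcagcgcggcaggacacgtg

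The whole windows of 250 bases before a start also differed between outer and inner starts, but not at every inner start. At ABCB1 the outer window had a GC content of 39.2% and 1 CpG, and the inner window 55.6% and 12 CpG. The inner window of ABCB1 held a CCAAT box 238 bases before the start and an inverted one, ATTGG, 79 bases before it. The inverted CCAAT box is a known element of the promoter of ABCB1. At ABCG2 the outer window had a GC content of 40% and 2 CpG, and the inner window at the stretch shown 71.2%, 27 CpG and 2 GC boxes. The inner window chr4:88159291-88159540 had 43.6%, 5 CpG and no GC box, close to the outer one. The window before the MANE Select start, chr4:88158640-88158889, had 73.6%, 32 CpG and no GC box. CCAAT or ATTGG stood in 32.0% and the GC box, GGGCGG or CCGCCC, in 42.5% of the 34943 RefSeq windows of this length, and their median number of CpG was 11. A match of letters is a description and does not show binding of a factor.

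The peaks were spread very differently over the genes before treatment. Untreated peaks covered 33.6% of the ABCC1 window, 13.0% of the ABCG2 window and 5.29% of the ABCB1 window. The median over 12238 windows of 200 kb with an untreated peak was 8.25%. ABCC1 held 10 of the 11 untreated peaks of 2000 bp or more at these genes, ABCB1 held the other one, and ABCG2 had none. In every list the order of the genes by covered share was ABCC1, ABCG2 and ABCB1.

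**Figure D1:**
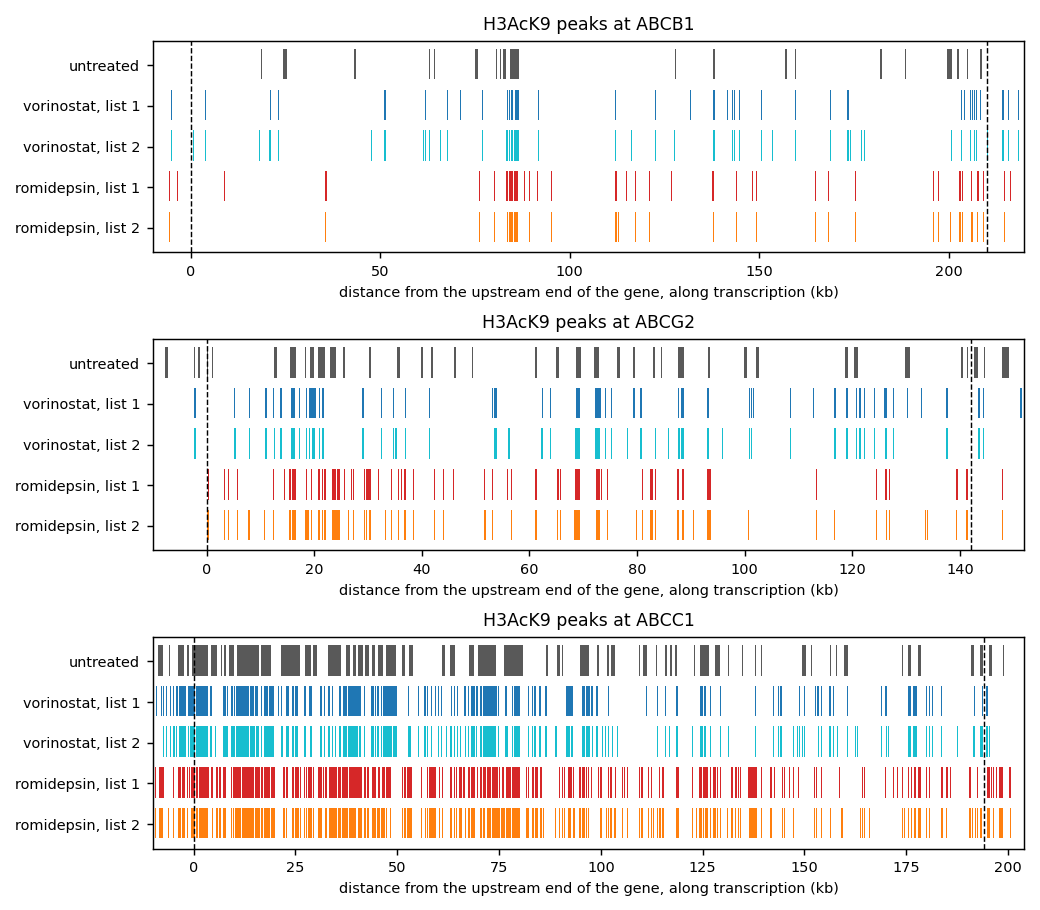
H3AcK9 peaks of each list (rows, bars to scale) at ABCB1, ABCG2 and ABCC1, by distance in kb from the upstream end of the gene along transcription, with dashed lines at both ends of the gene. Peaks of ABCC1 are dense over the upstream part of the gene, and the untreated list of ABCB1 is empty between its widest peak at 84.18 to 86.55 kb and 127.84 kb.

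The number of peaks was higher in every treated list than in the untreated list at all 3 genes. ABCB1 had 22 untreated peaks, 55 and 67 with vorinostat, and 49 and 46 with romidepsin, which gave fold changes of 2.77 and 2.16. ABCG2 had 39 untreated peaks, 63 and 61 with vorinostat, and 73 and 78 with romidepsin, or 1.59-fold and 1.94-fold. ABCC1 had 64 untreated peaks, 142 and 154 with vorinostat, and 180 and 178 with romidepsin, or 2.31-fold and 2.80-fold. A rise of at least 1.5-fold, seen at 3 of 3 genes with either drug, was also found in 97.5% of all windows with vorinostat and in 91.6% with romidepsin, so it was the rule across the genome.

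The peaks were also called at different grain. The narrowest untreated peak of the whole list had 127 bp and the smallest gap 509 bp, against 50 to 51 bp and 201 to 205 bp in the treated lists. With the peaks of every list joined and filtered to the limits of the untreated list, the fold changes in peak number were 1.34 and 1.14 at ABCB1, 1.05 and 0.974 at ABCG2, and 1.00 and 1.05 at ABCC1, with vorinostat and romidepsin respectively. The lists as deposited held narrower peaks after treatment. The median width at ABCB1 was 422 bp in untreated cells, 177 and 164 bp with vorinostat, and 183 and 148 bp with romidepsin. At ABCC1 it was 744 bp in untreated cells, 249 and 254 bp with vorinostat, and 311 and 294 bp with romidepsin.

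In the lists as deposited, the bases covered by peaks moved much less than the number of peaks. ABCB1 had 12167 bp covered in untreated cells, 11701 and 14117 bp with vorinostat, and 10807 and 9076 bp with romidepsin. The vorinostat lists lay on either side of the untreated value, with a mean fold change of 1.06, and both romidepsin lists lay below it, at 0.817. ABCG2 had 21048 bp covered in untreated cells, 15929 and 15619 bp with vorinostat, and 16839 and 17985 bp with romidepsin. All 4 treated lists of ABCG2 lay below the untreated one, at 0.749 and 0.827. ABCC1 had 71949 bp covered in untreated cells, 61826 and 64037 bp with vorinostat, and 84633 and 82907 bp with romidepsin. Both vorinostat lists of ABCC1 lay below the untreated value, at 0.875, and both romidepsin lists above it, at 1.16.

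No gene passed 1.5-fold in either direction for covered bases in the lists as deposited. At the limits of the untreated list the fold changes in covered bases were 1.28 and 0.958 at ABCB1, 0.919 and 1.13 at ABCG2, and 1.14 and 1.58 at ABCC1, with vorinostat and romidepsin respectively, against medians over all windows of 1.13 and 1.14. ABCC1 with romidepsin thus passed 1.5-fold there, as it did after merging across gaps of up to 1000 bp, at 1.65 against a median of 1.36. Among all windows, 21.4% rose and 13.7% fell by at least this fold with vorinostat, and 13.2% rose and 20.0% fell with romidepsin. The median fold change over all windows was 0.947 with vorinostat, with quartiles of 0.755 and 1.37, and 0.920 with romidepsin, with quartiles of 0.719 and 1.19. With both drugs, ABCB1 and ABCC1 lay inside these quartiles, while ABCG2 lay just below the lower quartile with vorinostat only. The median depended on how much was covered at the outset. It was 1.402 with vorinostat and 0.943 with romidepsin in windows with under 5% untreated cover, and 0.797 and 0.936 in windows with 20% or more, the class of ABCC1. The quartiles of that class were 0.702 and 0.901 with vorinostat, and 0.812 and 1.09 with romidepsin. Within its class ABCC1 thus lay above the upper quartile with romidepsin. In windows with 10 to under 20%, the class of ABCG2, the lower quartiles were 0.696 and 0.722, and ABCG2 lay inside the quartiles with both drugs. Kept to peaks with a score of at least 1, ABCG2 had 13188 bp covered in untreated cells and fold changes of 0.251 and 0.298 that passed 1.5-fold downwards, against medians over all windows of 0.702 and 0.618. What the score measures is not known, so it is not known whether this filter is a stricter one.

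The drugs were furthest apart at ABCC1 in the upward direction and at ABCB1 in the downward direction. The covered bases with romidepsin were 1.33 times those with vorinostat at ABCC1, where the lists of a sample differed by 3.51% and 2.06% of their mean. At ABCG2 the ratio was 1.10, with differences between lists of 1.97% and 6.58%. At ABCB1 it was 0.770, with differences of 18.7% and 17.4%. The median ratio over all windows was 0.968, with quartiles of 0.700 and 1.16, so ABCC1 lay above the upper quartile. In windows with 20% or more untreated cover the median was 1.17, with quartiles of 1.08 and 1.29. The pattern of ABCC1, below untreated in both vorinostat lists and above it in both romidepsin lists, was found in 7.75% of all windows and in 19.9% of those with 20% or more untreated cover. At the limits of the untreated list this pattern was lost, since ABCC1 was above untreated with both drugs.

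Promoter and gene body were then compared, with the promoter zone taken as 2 kb either side of the upstream end. At ABCC1 the promoter zone was covered to 71.8% in untreated cells, 79.5% and 73.1% with vorinostat, and 62.6% and 55.7% with romidepsin. Its gene body was covered to 33.9% in untreated cells, 28.7% and 29.9% with vorinostat, and 39.5% and 38.9% with romidepsin. In this zone, both vorinostat lists were above untreated and both romidepsin lists below it, and in the body the reverse. The promoter values turned on the zone and on the calling. At 1 kb either side the mean with romidepsin was 73.2%, equal to the 73.2% of untreated cells, and at the limits of the untreated list it was 81.1%, above the 71.8% of untreated cells. Centred on 0.5 kb, the distance of the MANE Select start, 98.2% of 1 kb either side was covered in untreated cells, 85.5% in each vorinostat list, and 73.1% and 66.2% with romidepsin, so both drugs lay below untreated there. Centred there with 2 kb either side, untreated cells had 83.4%, between the vorinostat lists at 88.4% and 82.0%. At ABCG2 the promoter zone was covered to 20.6% in untreated cells, 6.88% and 3.95% with vorinostat, and 5.35% and 12.5% with romidepsin. All treated lists of ABCG2 were below untreated there, and the romidepsin lists lay apart from each other. At 1 kb either side the mean with romidepsin was 16.5%, just above the 15.6% of untreated cells, while with vorinostat it was 3.75%. The gene body of ABCG2 was covered to 12.4% in untreated cells, 10.4% and 10.4% with vorinostat, and 11.7% and 12.4% with romidepsin. At ABCB1 the promoter zone was empty in 4 of the 5 lists, with a peak of 83 bp only in the second vorinostat list, which gave 2.08%. The gene body of ABCB1 was covered to 5.85% in untreated cells, 4.92% and 6.05% with vorinostat, and 4.82% and 4.18% with romidepsin.

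ABCB1 had no untreated peak near its upstream end or near its MANE Select start. An untreated peak at 181.83 to 182.49 kb lay near 181.63 kb, where a shorter transcript started in the hg38 annotation. No untreated peak touched the promoter zone or either flank, and none lay between chr7:87215161 and chr7:87256453, a stretch that includes the distance of the MANE Select start. All 4 treated lists held a peak near that distance. These peaks were 295 and 259 bp wide with vorinostat and 361 and 409 bp wide with romidepsin, and all 4 covered chr7:87230817-87230984, which is 168 bp at 112.02 to 112.18 kb from the upstream end. The nearest untreated peak was 15655 bp away. Within 1 kb either side of 112.4 kb, 0% of the bases were covered in untreated cells, 14.8% and 15.5% with vorinostat, and 18.1% and 24.7% with romidepsin. Treated peaks also lay elsewhere in this stretch. From 90 to 100 kb the cover was 0% in untreated cells, 1.20% and 1.91% with vorinostat, and 6.77% and 3.95% with romidepsin. How often treated peaks lie this near to any given place is not known here, so nothing particular to the start is read from them. The gene was 210 kb long in the hg19 window and 210.3 kb in the hg38 annotation. Distances in both were set side by side without converting a position, and since the window is given to 1 kb, the offset between peak and start is not resolved below that.

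The widest untreated peak at ABCB1 was chr7:87256453-87258820, with 2368 bp at 84.18 to 86.55 kb from the upstream end. Of its bases, 62.5% and 77.2% stayed covered with vorinostat, and 65.2% and 76.0% with romidepsin. RUNDC3B, a protein-coding gene on the other strand, started 85.78 kb from the upstream end of ABCB1 in the hg38 annotation, within the distances of this peak. This place lies inside ABCB1 and, by distance, at the start of its neighbour, and to which gene the acetylation belongs cannot be told apart. Along ABCB1, the upstream 70 kb had 2188 bp covered in untreated cells, 2444 and 3250 bp with vorinostat, and 735 and 242 bp with romidepsin. In the middle 70 kb the values were 5211, 3585, 4836, 5472 and 4655 bp in the same order. The largest fall of covered bases at ABCB1 with romidepsin among the upstream, middle and downstream 70 kb lay in the upstream part, which the MANE Select transcript does not include.

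At ABCG2 the inner start held the wider untreated peak. The untreated peak chr4:89080021-89081057, of 1037 bp, reached from 71.94 to 72.98 kb, near the MANE Select start at 72.99 kb in the hg38 annotation. Here too the window edge is known only to 1 kb, so the offset between peak and start is not resolved below that. It stayed covered to 84.1% in both vorinostat lists, and to 58.6% and 63.3% with romidepsin. Within 1 kb either side of 73.0 kb, 49.0% of the bases were covered in untreated cells, 57.4% and 47.3% with vorinostat, and 41.5% and 36.6% with romidepsin. The vorinostat lists lay on either side of the untreated value and both romidepsin lists below it. Within 2 kb either side the cover was 25.9% in untreated cells, 33.7% and 28.6% with vorinostat, and 26.1% and 24.9% with romidepsin, so at that width both vorinostat lists were above untreated and the romidepsin lists on either side of it.

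The untreated peaks in the promoter zone of ABCG2 were narrow, and none of these 3 was kept, a kept peak being one with at least 50% of its bases covered in both lists of a drug. On the chromosomes with peaks in all lists, only 15.8% of untreated peaks under 500 bp were kept with vorinostat and 19.1% with romidepsin. Nothing particular to this zone is therefore read from the count. The peak chr4:89152683-89152979, of 297 bp, was covered to 25.3% in both vorinostat lists, and to 13.1% and 91.6% with romidepsin. The peak chr4:89151823-89152014, of 192 bp, was touched only in the first vorinostat list, at 31.8%. The peak chr4:89154237-89154570, of 334 bp, was touched in no treated list. The flanks of ABCG2 also had less cover in treated cells. In the downstream flank 20.3% was covered in untreated cells, 8.07% and 5.27% with vorinostat, and 1.95% and 1.45% with romidepsin.

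Inside ABCG2 the widest untreated peak, chr4:89130964-89132346 of 1383 bp, differed between the drugs. It was covered to 29.1% in both vorinostat lists, and to 62.6% and 59.7% with romidepsin. A neighbour of 1086 bp, chr4:89128935-89130020, was not touched with vorinostat and was covered to 68.1% and 76.8% with romidepsin. This neighbour was picked after its values were seen. From 20 to 30 kb of the gene, the step holding both, 28.8% was covered in untreated cells, 10.8% and 9.77% with vorinostat, and 32.4% and 31.6% with romidepsin.

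At ABCC1 an untreated peak of 3934 bp, chr16:16042537-16046470, spanned the upstream end from -0.46 to 3.47 kb. It was covered to 92.6% and 91.7% with vorinostat and to 86.3% and 82.8% with romidepsin, so most of it stayed with both drugs. It was broken into 2 pieces in each vorinostat list and 3 pieces in each romidepsin list. A run of 280 bp, chr16:16043323-16043602, was covered in untreated cells and in no treated list. It lay 0.32 to 0.60 kb from the upstream end, and transcripts started at 0.44 to 0.48 kb in the hg38 annotation, again with a window edge known only to 1 kb. Runs covered in no treated list also lay in other wide untreated peaks of ABCC1, the longest with 594 bp at 23.51 to 24.1 kb. Nothing particular to the start is therefore read from this run. Such breaks were common in wide peaks, since an untreated peak of 2000 bp or more had a median of 3 treated peaks on it in every treated list, both across 32713 such peaks and over the 10 of ABCC1. A smaller untreated peak of the zone, chr16:16041466-16041873 of 408 bp, was covered to between 26.2% and 48.3% and was not kept.

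Further into ABCC1 the widest untreated peak, chr16:16053602-16059019 of 5418 bp, stayed covered to between 84.9% and 91.0% in the 4 treated lists. The untreated peak chr16:16064409-16069233, of 4825 bp, was covered to only 40.6% and 49.3% with vorinostat and 47.8% and 42.8% with romidepsin. It was the only peak of 2000 bp or more at these genes that was kept with neither drug.

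The excess of romidepsin over untreated at ABCC1 lay in the middle and downstream parts. In the upstream 64.7 kb, 37247 bp were covered in untreated cells, 30744 and 31938 bp with vorinostat, and 38410 and 36503 bp with romidepsin. The romidepsin lists lay on either side of the untreated value there. In the middle 64.7 kb, 22239 bp were covered in untreated cells, 18368 and 18164 bp with vorinostat, and 25585 and 26168 bp with romidepsin, a fold change of 1.16 for romidepsin. In the downstream 64.7 kb, 7529 bp were covered in untreated cells, 7632 and 9097 bp with vorinostat, and 13297 and 13363 bp with romidepsin, a fold change of 1.77 for romidepsin. The downstream flank went the same way, with 10.1% covered in untreated cells, 3.40% and 7.10% with vorinostat, and 28.3% and 25.3% with romidepsin. ABCC6, another transporter of the same family on the other strand, ended 200.43 kb from the upstream end of ABCC1 in the hg38 annotation, within the distances of this flank. From 130 to 140 kb the cover was 11.3% in untreated cells, 6.18% and 5.99% with vorinostat, and 38.0% and 39.8% with romidepsin.

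Of the 125 untreated peaks of the 3 genes, 32 were kept with vorinostat, 44 with romidepsin, 22 with both and 71 with neither. ABCB1 kept 4 of 22 with vorinostat (18.2%) and 1 of 22 with romidepsin (4.55%), and ABCG2 kept 7 and 9 of 39 (17.9% and 23.1%). ABCC1 kept 21 and 34 of 64 (32.8% and 53.1%). Of all untreated peaks, the share kept ran by width class from 15.8% to 59.9% with vorinostat and from 19.1% to 64.1% with romidepsin. Here all untreated peaks means those on the 20 chromosomes with peaks in all lists. No share over all widths, or for both or neither drug, stands beside the counts above. Nothing particular to the genes is therefore read from those counts. The genes differ in peak width, so the counts are compared by width class, for the 3 genes together. Width went along with being kept. Of the 59 peaks under 500 bp, 9 were kept with vorinostat (15.3%) and 14 with romidepsin (23.7%), against 15.8% and 19.1% of all untreated peaks of this width. Of the 55 peaks from 500 to under 2000 bp, 14 were kept with vorinostat (25.5%) and 21 with romidepsin (38.2%), against 19.0% and 23.8%. Of the 11 peaks of 2000 bp or more, 9 were kept with each drug (81.8%), against 59.9% and 64.1%. ABCC1 gave 11 of the 14 narrow and 15 of the 21 medium-width peaks kept with romidepsin. It also gave 8 of the 9 wide peaks kept with each drug, so these shares mostly describe ABCC1. ABCB1 kept 0 of 14 narrow and 0 of 7 medium-width peaks with romidepsin, and 2 and 1 of them with vorinostat. The share of the narrow peaks was near that of all untreated peaks with vorinostat.

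Places covered in all 4 treated lists and by no untreated peak numbered 6 at ABCB1, 8 at ABCG2 and 30 at ABCC1. This was 2.61, 4.94 and 14.0 places per 100 kb, against 5.44 over the chromosomes with peaks in all lists. For places shared by both drugs, ABCB1 was thus below this rate and ABCC1 above it. Counted in both vorinostat lists only, the rates were 16.1, 22.2 and 22.9, against 14.5, so ABCB1 was above there. In both romidepsin lists they were 13.0, 21.6 and 34.6, against 15.6. No rate of windows with like untreated cover was set beside these. Of the places in all 4 treated lists, the longest at ABCB1 was chr7:87259306-87259496, with 191 bp, which lay 285 bp from an untreated peak. It was followed by the place near the inner start and by chr7:87139144-87139275, with 132 bp. At ABCG2 the longest were chr4:89115968-89116207 with 240 bp, chr4:89026569-89026698 with 130 bp and chr4:89148992-89149050 with 59 bp. At ABCC1 they were chr16:16062087-16062668 with 582 bp, chr16:16073966-16074534 with 569 bp and chr16:16219920-16220393 with 474 bp. The longest place of ABCC1 lay 139 bp from an untreated peak. The place near the inner start of ABCB1 was, of the 44 places at the 3 genes, the one furthest from an untreated peak.

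The lists of a treated sample shared the most covered bases at ABCC1. Of the bases covered in either vorinostat list, 61.5% were covered in both at ABCB1, 73.7% at ABCG2 and 79.6% at ABCC1, against 65.8% over the shared chromosomes. With romidepsin the shares were 64.8%, 69.7% and 82.6%, against 69.4%. Peaks with the same start and end in both lists made up 36.4% of the first and 29.9% of the second vorinostat list at ABCB1, 49.2% and 50.8% at ABCG2, and 42.3% and 39.0% at ABCC1. With romidepsin these shares were 34.7% and 37.0% at ABCB1, 45.2% and 42.3% at ABCG2, and 34.4% and 34.8% at ABCC1. By identical peaks the agreement was thus highest at ABCG2 with either drug. Over the shared chromosomes the shares of identical peaks were 26.9% and 26.9% with vorinostat, and 29.1% and 29.2% with romidepsin. ABCB1, ABCG2 and ABCC1 all lay above these values with either drug. Single narrow peaks of 1 list, such as the one in the promoter zone of ABCB1, thus have no second observation.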

How the data were processed

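H3AcK9 ChIP-seq of SKOV3WT cells was analysed from peak lists. Each list was called on its own, and the submitters' processing notes name BWA and MACS 1.4.2. The authors deposited a position and a score for every peak, a number whose scale is not given in the sources used here and which served only as a filter. The notes name hg38, but in all 5 lists peaks on chromosome 1 ran past its hg38 end, by 265674 bp in the untreated list, and contig names are those of hg19. Peak positions are therefore given in hg19, and no position was converted. Other pathway genes were not analysed here, since no hg19 annotation was used, and exons and introns were not assigned to peaks.

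Peak numbers, covered bases and overlaps of at least 1 bp were computed with Python 3.11.15, NumPy 2.4.6 and pandas 2.3.3. They were tested on simulated data (80 of 80 checks recovered) and checked against bedtools 2.31.1 (15 of 15 equal). Figures were drawn with Matplotlib 3.10.9. A fold change is the mean of both lists over the untreated value, and a call is 1.5-fold. The background is consecutive 200 kb windows with an untreated peak on the 20 chromosomes with peaks in all lists. The shares of all untreated peaks kept use the same chromosomes. Contigs aside, the untreated and vorinostat lists held peaks on 23 chromosomes, and the romidepsin lists on 21 and 20. Named within a gene were untreated peaks touching the promoter zone, the widest untreated peak and up to 3 places covered in all treated lists but not in the untreated one. Other peaks were named after their values were seen. The members, lists and rules were chosen with earlier results of these data known. The joining to the limits of the untreated list, the zones at inner starts, the parts along each gene and the classes of windows by cover were added after seeing the data.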

Additional observations from a re-analysis of the deposited data

How the results depend on the processing

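With 1 sample per condition no call rests on a test and no paired analysis was possible. The causes of the changes below were not tested. Of the covered-base fold changes under other settings, 45 of 48 stayed within 1.5 times their value, and 9 of these 45 stood on the other side of 1. Among the 45, ABCC1 with romidepsin passed 1.5-fold after merging across 1000 bp, at 1.65, and at the limits of the untreated list, at 1.58. The exceptions were ABCG2 with a score of at least 1, at 0.251 for vorinostat and 0.298 for romidepsin, and ABCG2 with romidepsin after merging across 1000 bp, at 1.33. Fold changes in peak number were less stable. With a score of at least 1 they were 0.646 and 0.833 at ABCG2. With peaks of at least 200 bp they were 1.42 and 1.03 at ABCB1, 0.900 and 0.914 at ABCG2, and 1.51 with vorinostat at ABCC1. After merging across 1000 bp they were 1.17 with romidepsin at ABCG2, and 0.976 and 0.869 at ABCC1. At the limits of the untreated list they were 1.34 and 1.14 at ABCB1, 1.05 and 0.974 at ABCG2, and 1.00 and 1.05 at ABCC1.

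The promoter zone of ABCB1 with vorinostat was covered to 1.04% as the mean of both lists, 0% and 2.08% in the first and the second list, 2.08% at 1 kb either side, 6.07% at 5 kb and 0% at the limits of the untreated list, and with romidepsin to 1.94% at 5 kb. That of ABCG2 fell from 5.41% to 2.08% with vorinostat at those limits, and with romidepsin was 8.91%, 5.35% in the first list and, at 1 kb, 16.5% against 15.6% in untreated cells. That of ABCC1 with romidepsin was 59.1% against 71.8% in untreated cells, and 81.1% at the limits of the untreated list. Untreated peaks with at least 1 bp covered in both lists numbered 5 with romidepsin at ABCB1, 14 and 20 at ABCG2, and 48 and 52 at ABCC1. Those with at least 80% covered numbered 0 and 0, 2 and 2, and 10 and 15. No share of all untreated peaks at these thresholds stands beside the counts, so nothing particular to a gene is read from them. Depth is unknown, so an empty place means that no peak was called there and not that the mark was absent.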
